A study of Homo sapiens with 6 samples.

Results

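The 7 genes of the human INK4 and CIP/KIP families, which encode the inhibitors of cyclin-dependent kinases (CDKs), were examined in K562 cells treated with an EZH2 inhibitor. The members were chosen by gene symbol, and 7 of the 60671 gene rows in the count files have an Ensembl identifier that GENCODE pairs with one of these symbols. K562 is a human chronic myeloid leukemia line. All cells were of 1 clone, Flag-NLS-M.CviPI-Lamin-B1 K562, which makes Lamin B1 joined to M.CviPI, a GpC methyltransferase, when doxycycline is added. The DMSO group of 3 samples received 0.1% DMSO as vehicle for 72 h, and the EZH2i group of 3 samples received 1 µM GSK343 for 72 h. All 6 samples, vehicle included, received doxycycline at 1 µg/mL for the last 24 h, so every value describes induced cells of a single clone. RNA was profiled with QuantSeq, whose reads come from near the polyadenylated end of a transcript, and reads were counted per Ensembl gene. The 3 replicates of each group were cultures treated apart from each other, per the study's methods.

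CDKs drive the cell cycle when bound to a cyclin. The CIP/KIP proteins p21 (*CDKN1A*), p27 (*CDKN1B*) and p57 (*CDKN1C*) bind cyclin-CDK complexes, with CDK2 complexes as their best known targets. The INK4 proteins p16 (*CDKN2A*), p15 (*CDKN2B*), p18 (*CDKN2C*) and p19 (*CDKN2D*) bind CDK4 and CDK6 and keep them from D-type cyclins, so that RB1 stays unphosphorylated and E2F factors stay bound. EZH2 is the catalytic subunit of Polycomb repressive complex 2 (PRC2), which trimethylates histone H3 at lysine 27, and *CDKN2A* and *CDKN2B* are among its best known targets in other cells. The *CDKN2A* locus is known to be deleted in K562.

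Of the 7 inhibitors, 5 were read in every library and 2, *CDKN2A* and *CDKN2B*, had no read in any. Of the 5 that passed the expression filter, 1 rose after EZH2 inhibition and 0 fell by edgeR's quasi-likelihood test (Benjamini-Hochberg adjusted p under 0.05 over all 12364 tested genes). The gene that rose was *CDKN1A*, which went up 1.93-fold. Among all tested genes 3.34% were called higher and 0.922% lower. At an unadjusted p-value under 0.05 there were 3 members, *CDKN1A*, *CDKN1C* and *CDKN2D*, and 19.1% of all tested genes. The EZH2i and DMSO values of these 3 members did not overlap, which held for 24.5% of all tested genes.

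The promoter windows of *CDKN1A* and *CDKN2D* are shown because these members had the highest and the lowest fold change of the 5. Each holds 250 bases before and 50 after a RefSeq transcription start (GRCh38.p14), 5′ to 3′ on the strand of the gene, with capitals for GC boxes (GGGCGG on either strand, a motif bound by SP1). That of *CDKN1A* is at chr6:36678464-36678763 on the plus strand and that of *CDKN2D* at chr19:10568930-10569229 on the minus strand.
*CDKN1A*: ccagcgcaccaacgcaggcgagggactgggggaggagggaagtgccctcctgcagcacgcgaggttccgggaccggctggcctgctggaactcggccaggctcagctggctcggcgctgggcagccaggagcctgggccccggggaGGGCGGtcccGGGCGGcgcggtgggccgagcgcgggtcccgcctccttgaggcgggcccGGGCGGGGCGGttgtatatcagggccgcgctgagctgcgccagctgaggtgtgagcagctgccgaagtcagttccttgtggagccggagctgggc
*CDKN2D*: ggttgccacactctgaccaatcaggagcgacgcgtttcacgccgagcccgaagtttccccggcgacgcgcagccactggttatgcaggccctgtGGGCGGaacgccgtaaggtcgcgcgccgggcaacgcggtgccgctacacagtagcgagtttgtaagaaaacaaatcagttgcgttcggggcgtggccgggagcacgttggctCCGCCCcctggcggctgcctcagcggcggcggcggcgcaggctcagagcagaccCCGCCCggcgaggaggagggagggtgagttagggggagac

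Both windows held 3 separate stretches of GC boxes, and in *CDKN1A* the stretch nearest the start is a pair that share 1 base. A GC box was found in 45.0% of all 35116 RefSeq windows of this length. The *CDKN2D* window also held 1 match to an E2F element (TTTNNCGC, either strand), found in 6.89% of all windows, and 1 CCAAT box (CCAAT, either strand), found in 34.6%. The *CDKN1A* window held neither, and neither window held a TATA box (TATAAA, either strand; 11.5% of all windows). The *CDKN1A* and *CDKN2D* windows had 29 and 36 CpG dinucleotides, against a median of 14 over all windows. Fewer were found in 75.8% and 87.3% of all windows. In all, 6 of the 7 members had a window in the RefSeq table used here, and *CDKN1C* had none. The match of a motif in a window is a description of its letters and says nothing of a factor being bound.

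The libraries held 6327544 to 8987768 reads assigned to genes. EZH2i replicate 1 stood further from its group than the other EZH2i libraries did from each other. The chi-square per degree of freedom between replicates was 10.8 and 12.7 for the pairs with it and 4.56 for EZH2i replicates 2 and 3, against 6.42 to 8.46 in DMSO. EZH2i replicate 3 had the highest share of reads on no gene, at 12.7% against 7.43% to 8.51% elsewhere. Of 13 markers of K562 and erythroid cells 12 passed the filter, while the embryonic globin *HBE1* had 1 to 6 reads per library. Of these 12, the fetal globin *HBG2* was called higher (log2 fold change 0.58, edgeR adjusted p = 0.0251). Summed levels of markers of some other cell types differed between the groups in both directions. The summed level of 5 T cell markers was 63.8 to 79.5 CPM in DMSO and 98.7 to 114 CPM in EZH2i, carried by *CD3D* and *TRAC*, while *CD3E*, *CD3G* and *CD2* had at most 8 reads in any library. The sums of 4 monocyte markers (11.1 to 16.4 against 20.5 to 23.3 CPM, with *CSF1R* at 0) and of 4 fibroblast markers (1.41 to 2.84 against 5.69 to 9.02 CPM) were also higher in each EZH2i library than in any DMSO library. The sum of 4 epithelial markers was lower in each EZH2i library than in any DMSO library (72.9 to 83.5 against 61.3 to 66.7 CPM, with *KRT5* at 0). Of the markers in these sums that passed the filter, *CD3D*, *TRAC*, *LYZ* (monocyte) and *COL1A1* (fibroblast) were called higher, with edgeR adjusted p = 0.0309, 0.00349, 0.0426 and 0.00424. *EPCAM* (epithelial) was not called, with edgeR adjusted p = 0.156. The part of these markers in the values below was not tested.

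*CDKN2A* (ENSG00000147889; GRCh38 chromosome 9, 21967752 to 21995301, minus strand) and *CDKN2B* (ENSG00000147883; chromosome 9, 22002903 to 22009305, minus strand) had 0 reads in DMSO replicates 1, 2 and 3 and 0 reads in EZH2i replicates 1, 2 and 3. At these depths, 0 reads allow a level of up to 0.340 to 0.469 CPM per library (3 counts, counting error only). Neither gene could therefore be tested, and no read of either appeared after EZH2 inhibition. *MTAP*, which encodes the methionine salvage enzyme next to *CDKN2A*, was also at 0 in all 6 libraries. The same was true of *KLHL9*, an adaptor of a ubiquitin ligase.

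The absence of reads extended well beyond the pair. Of the 23 other protein-coding genes within 2 Mb, 21 (91.3%) had no read in any library, against 25.2% of all 19911 protein-coding genes in the files. From *HACD4* to *TUSC1*, 25 protein-coding genes in a row, the pair included, over 4.68 Mb, were without a read. Of these, 16 are interferon genes, which are silent in most unstimulated cells. Of the 2746 runs of unread genes in the genome, 7 were at least as long. The flanking genes were read, but *FOCAD* had only 15 reads over the 6 libraries, with 0 to 5 in each. *CAAP1*, on the other side, had 1387. The antisense transcript *CDKN2B-AS1* (also known as ANRIL) was listed with 4, 2 and 6 reads in DMSO replicates 1 to 3 and 4, 3 and 2 reads in EZH2i replicates 1 to 3. It starts within *CDKN2A*, with 593 bases of exon overlap on the opposite strand, and runs on past *CDKN2B*. Counts per gene do not show where along it these reads lie. RNA reads cannot tell a deleted gene from a silent one.

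**Figure D1:**
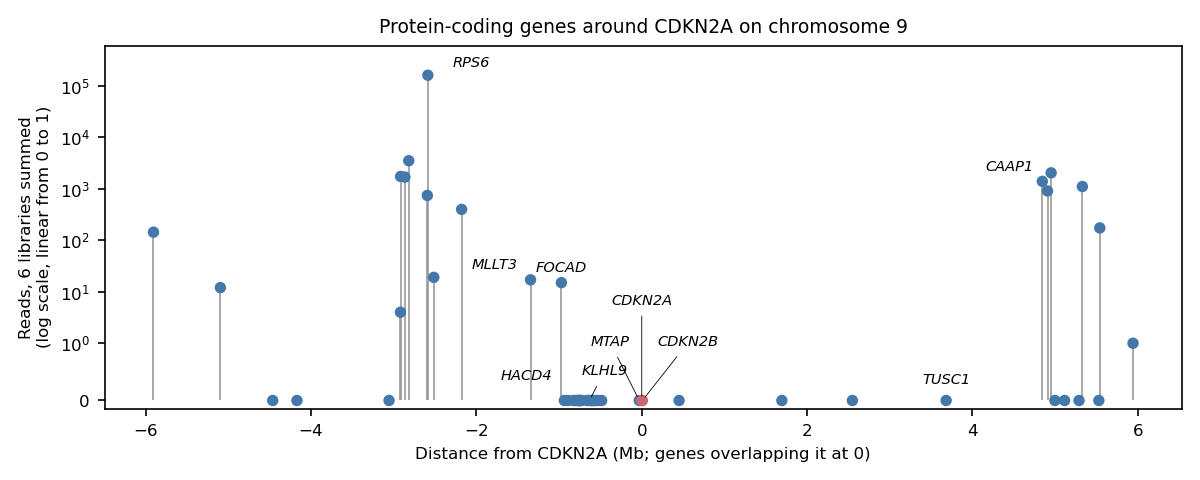
Reads summed over the 6 libraries (vertical axis, log scale that is linear from 0 to 1) for each protein-coding gene by its distance from *CDKN2A* (horizontal axis, Mb). *CDKN2A* and *CDKN2B* (red) and their neighbours from *HACD4* to *TUSC1* sit at 0, between *FOCAD* with 15 reads and *CAAP1* with 1387.

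*CDKN1A* (ENSG00000124762; chromosome 6, 36676460 to 36687337, plus strand) encodes p21. Levels here are in CPM, which are read counts scaled to library size and TMM factor. *CDKN1A* was at 63.5, 68.6 and 74.6 CPM in DMSO replicates 1, 2 and 3 and at 141, 128 and 130 CPM in EZH2i replicates 1, 2 and 3. The lowest EZH2i library lay far above the highest DMSO library, and the replicates of a group lay close together. The mean rose from 68.9 ± 5.53 to 133 ± 7.03 CPM (SD, n = 3 each). This is a log2 fold change equal to 0.95 (standard error, SE, 0.106, edgeR adjusted p = 6.93e-05), with a 95% interval of the fold from 1.66 to 2.26. By p-value it ranked 12 of the 12364 tested genes, and by log2 fold change 325. The gene was called in all 12 alternative fits, with a log2 fold change from 0.90 to 1.01. A lncRNA on the opposite strand, *DINOL*, shares 146 bases of exon with it, and the strand setting of the counting is not given in the sources used here. In bulk RNA, more RNA per cell and more cells with the transcript cannot be told apart.

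*CDKN1C* (ENSG00000129757; chromosome 11, 2883213 to 2885775, minus strand) encodes p57 and is an imprinted gene expressed from the maternal copy. It was at 119, 114 and 110 CPM in DMSO replicates 1 to 3 and at 128, 132 and 136 CPM in EZH2i replicates 1 to 3. The groups did not overlap, but the gap between them was small. The means were 114 ± 4.69 and 132 ± 3.91 CPM (SD, n = 3 each), with a log2 fold change equal to 0.21 (SE 0.0985, edgeR adjusted p = 0.246), which does not pass the threshold. The 95% interval of the fold was 1.00 to 1.34, and its upper end lies under the lower end of that for *CDKN1A*, 1.66.

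*CDKN1B* (ENSG00000111276; chromosome 12, 12685498 to 12722369, plus strand) encodes p27, whose level is set largely by protein degradation. It was at 37.7, 33.8 and 40.7 CPM in DMSO replicates 1 to 3 and at 26.1, 35.8 and 31.9 CPM in EZH2i replicates 1 to 3. The groups overlapped. The log2 fold change was -0.26 (SE 0.139, edgeR adjusted p = 0.327), with a 95% interval of the fold from 0.683 to 1.03. The lowest value came from EZH2i replicate 1, and without that library the log2 fold change was -0.14.

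*CDKN2D* (ENSG00000129355; chromosome 19, 10566460 to 10569059, minus strand) encodes p19, an INK4 inhibitor of CDK4 and CDK6. It was at 26.3, 26.4 and 24.9 CPM in DMSO replicates 1 to 3 and at 13.8, 20.8 and 21.8 CPM in EZH2i replicates 1 to 3. All 3 EZH2i libraries were below all 3 DMSO libraries. The log2 fold change was -0.46 (SE 0.164, edgeR adjusted p = 0.126), with a 95% interval of the fold from 0.573 to 0.925 before any adjustment for the number of genes. The spread was uneven, with a coefficient of variation of 3.28% in DMSO and 23.1% in EZH2i. Without EZH2i replicate 1 the log2 fold change was -0.28.

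*CDKN2C* (ENSG00000123080; chromosome 1, 50960745 to 50974634, plus strand) encodes p18. It was at 50.2, 46.5 and 51.4 CPM in DMSO replicates 1 to 3 and at 57.2, 43.5 and 53 CPM in EZH2i replicates 1 to 3. The EZH2i libraries lay on both sides of the DMSO range. The log2 fold change was 0.05 (SE 0.123, edgeR adjusted p = 0.865), and it was -0.03 without EZH2i replicate 1. Its 95% interval of the fold was 0.866 to 1.24, before any adjustment for the number of genes. Exons of an unnamed lncRNA on the opposite strand share 617 bases with it.

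**Figure D2:**
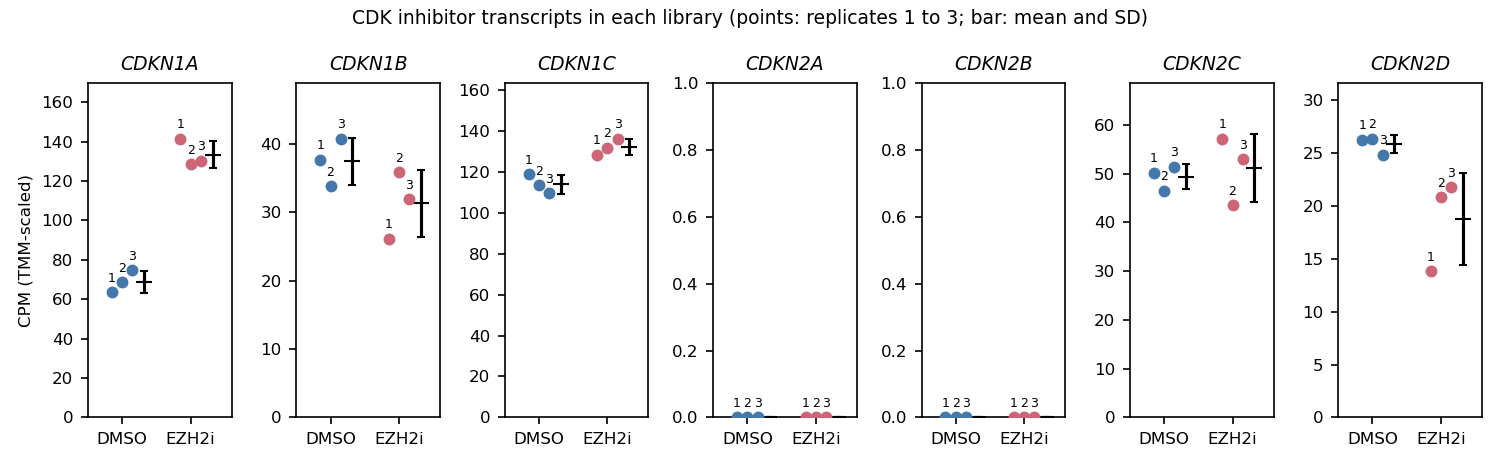
CPM of each CDK inhibitor gene (vertical axes, from 0, with a scale for each gene) in the DMSO (blue) and EZH2i (red) libraries, with the replicate number at each point and the mean and SD (n = 3) beside them. *CDKN1A* is higher in all 3 EZH2i libraries than in any DMSO library, *CDKN1C* and *CDKN2D* are separated by less, and *CDKN2A* and *CDKN2B* are at 0.

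The order of the inhibitors was read per kb of annotated exon, although reads from transcript ends need not scale with length. In DMSO *CDKN1C* was highest at 45.97 ± 1.89 CPM per kb, followed by *CDKN1A* at 23.0 ± 1.85 CPM per kb (SD, n = 3 each). *CDKN2D* at 17.2 ± 0.562 and *CDKN2C* at 16.4 ± 0.839 CPM per kb differed by less than the larger SD, and *CDKN1B* was lowest at 4.04 ± 0.374 CPM per kb. In EZH2i the order began with *CDKN1C* at 53.3 ± 1.58 and *CDKN1A* at 44.5 ± 2.35 CPM per kb. *CDKN2C* then stood at 17.0 ± 2.32, *CDKN2D* at 12.5 ± 2.88 and *CDKN1B* at 3.38 ± 0.526 CPM per kb. The lower ranks depend on the division by length. In CPM, without it, *CDKN2D* was lowest in both groups, at 25.8 ± 0.847 in DMSO and 18.8 ± 4.34 in EZH2i, under *CDKN1B* at 37.4 ± 3.46 and 31.3 ± 4.87 and *CDKN2C* at 49.4 ± 2.53 and 51.2 ± 7.0 (SD, n = 3 each). *CDKN1A* and *CDKN1C* then differed in EZH2i by less than their SDs, at 133 ± 7.03 and 132 ± 3.91 CPM (SD, n = 3 each).

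Summed over the family, inhibitor transcripts went from 296 ± 6.10 CPM in DMSO to 367 ± 6.44 CPM in EZH2i (SD, n = 3 each). The difference of the sums was 71.3 CPM, and that of *CDKN1A* alone was 64.5 CPM. The share of *CDKN1A* in the sum was 21.4% to 24.8% in the DMSO libraries and 34.9% to 38.5% in the EZH2i libraries. The CIP/KIP genes together went from 220 ± 4.36 to 297 ± 1.43 CPM, while the INK4 genes together were at 75.2 ± 2.0 and 70.0 ± 5.29 CPM (SD, n = 3 each). These sums were not tested, since the genes were picked as a family and one of them carries most of the difference.

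**Figure D3:**
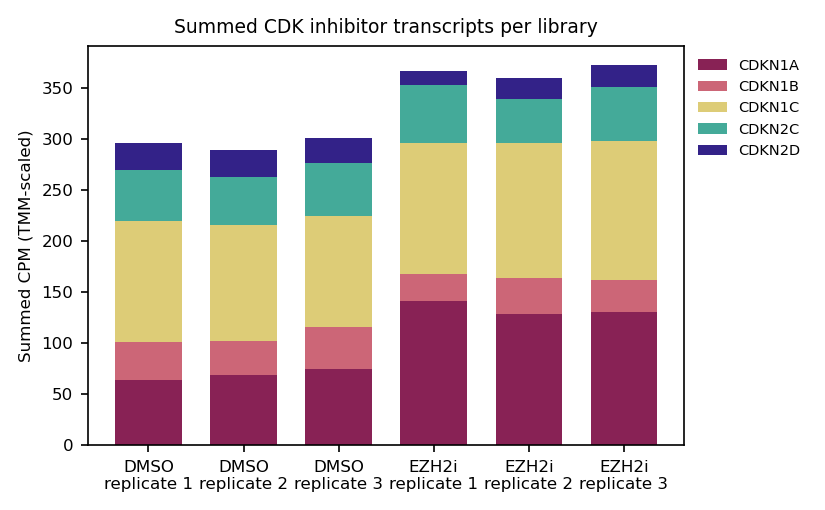
CPM of the 5 detected CDK inhibitor genes stacked for each library (vertical axis, from 0), with DMSO replicates on the left and EZH2i replicates on the right. The stacks rise from 289 to 301 CPM in DMSO to 360 to 373 CPM in EZH2i, and *CDKN1A* (bottom layer) makes up most of the difference.

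The call for *CDKN1A* and the absence of a call for the other 4 tested members held in every alternative fit. With DESeq2, limma-voom, other size factors, other filters, a replicate block or any 1 library left out, the adjusted p of *CDKN1A* was at most 0.00279. The lowest adjusted p of any other member in these fits was 0.0659, for *CDKN2D*. EZH2i replicate 1 had the highest *CDKN1A* and *CDKN2C* and the lowest *CDKN1B*, *CDKN1C* and *CDKN2D* of its group. Leaving it out moved *CDKN1B*, *CDKN2C* and *CDKN2D* more towards or past 0 than leaving out any other library did, and left *CDKN1A* at a log2 fold change of 0.91.

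**Figure D4:**
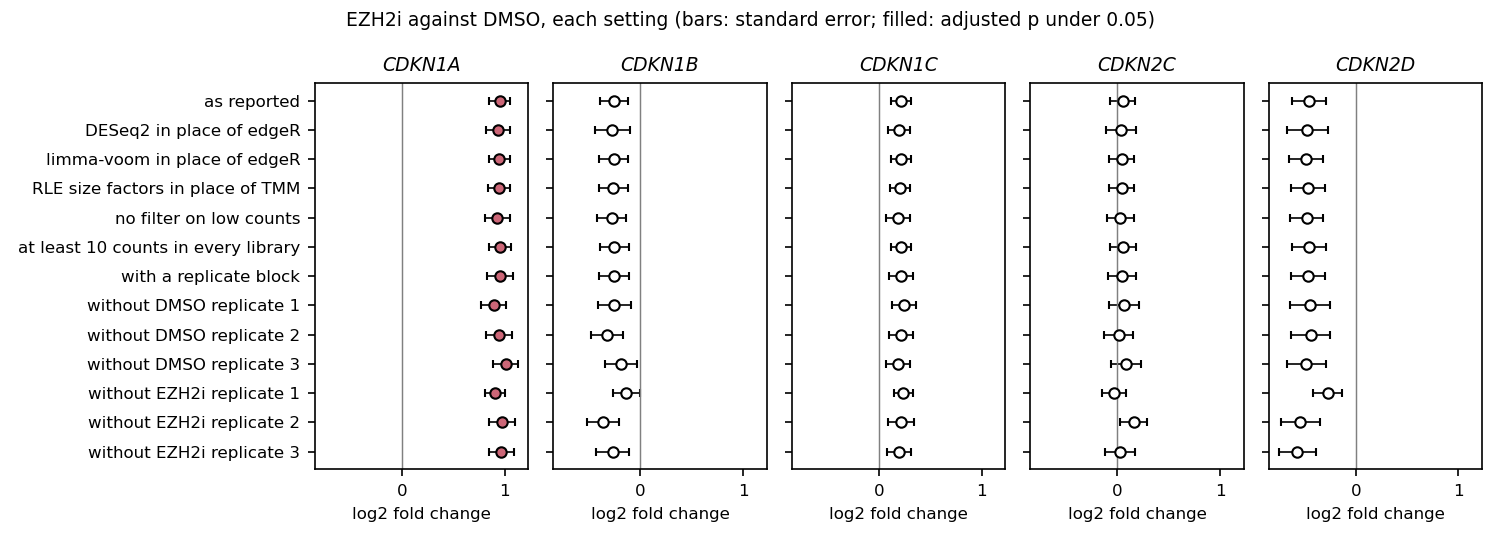
Log2 fold change of EZH2i against DMSO (horizontal axis, bars for the standard error) for the 5 tested CDK inhibitor genes under the reported fit and 12 alternatives (rows), with filled points at an adjusted p under 0.05. *CDKN1A* is filled in every row, from 0.90 to 1.01, and no other gene is filled in any.

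The targets of the inhibitors were measured in the same libraries. Of 7 CDKs, 6 were tested and 0 were called, with a median log2 fold change of -0.22 against -0.00 over all tested genes, and *CDK3* had no reads. The lowest p-value was that of *CDK2*, the main partner of cyclins E and A and a target of p21. *CDK2* was at 170, 160 and 159 CPM in DMSO and at 118, 142 and 128 CPM in EZH2i replicates 1 to 3, a log2 fold change of -0.33 (edgeR adjusted p = 0.0798). The groups did not overlap, and the difference did not pass the threshold. *CDK4*, which INK4 proteins bind, showed a log2 fold change of -0.25 (edgeR adjusted p = 0.165), and *CDK7*, the CDK-activating kinase, one of -0.30 (edgeR adjusted p = 0.278), or -0.17 without EZH2i replicate 1.

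Of 10 cyclins, 9 were tested and 0 were called, with a median log2 fold change of -0.15. Those with the lowest p-values were *CCND1* (log2 fold change 0.42, edgeR adjusted p = 0.106), *CCND3* (0.26, edgeR adjusted p = 0.207) and *CCNH*, the partner of CDK7 (-0.45, edgeR adjusted p = 0.232). *CCND1* and *CCND3* are D-type cyclins, which activate CDK4 and CDK6. *CCND1* passed the threshold only without EZH2i replicate 1 (0.52, edgeR adjusted p = 0.0319), and *CCNH* only without a filter on low counts (edgeR adjusted p = 0.0482). *CCNH* was at 44.4 CPM in DMSO replicate 2 and at 20.6 to 28.4 CPM in the other 5 libraries, and without that library its log2 fold change was -0.12 (edgeR adjusted p = 0.808). Of 13 pocket proteins and E2F or DP factors, which carry the signal from CDKs to transcription, all 13 were tested and 0 were called. Their median log2 fold change was -0.03, and it ran from -0.07 to 0.03 across the fits that each left out a library. These genes included *E2F4* (-0.20, edgeR adjusted p = 0.364), *RBL1* (-0.18, edgeR adjusted p = 0.461) and *TFDP1* (-0.26, edgeR adjusted p = 0.487). *TFDP1* was at 41.6 CPM in EZH2i replicate 1 and at 78.4 to 89.8 CPM in the other 5 libraries. The log2 fold change of *RBL1* was -0.09 without EZH2i replicate 3.

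Of 20 genes that regulate the inhibitors or their proteins, 1 rose and 0 fell, and the median log2 fold change was -0.07. The gene that rose was *TGFB1*, a cytokine known to induce *CDKN2B* and *CDKN1A* in epithelial cells. It was at 22.2, 15.8 and 16.9 CPM in DMSO and at 39.4, 28.1 and 25.9 CPM in EZH2i replicates 1 to 3, a log2 fold change equal to 0.78 (SE 0.176, edgeR adjusted p = 0.0187). The call was lost without DMSO replicate 2 (edgeR adjusted p = 0.114) or DMSO replicate 3 (edgeR adjusted p = 0.0845). *SKP2* and *CKS1B*, which together mark p27 for degradation, were singled out after their values were seen. They were not alone in lying lower: *CUL4A* had a log2 fold change of -0.35 (edgeR adjusted p = 0.108), with groups that did not overlap. Of the 20 genes, 13 had a log2 fold change under 0 and 7 over 0. *CKS1B* was at 289, 248 and 315 CPM in DMSO and at 129, 235 and 229 CPM in EZH2i replicates 1 to 3, with EZH2i replicate 1 far below the rest. Its log2 fold change was -0.52 (edgeR adjusted p = 0.0905) and -0.29 without that library. That of *SKP2* was -0.43 (edgeR adjusted p = 0.12) and -0.24 without it. *CKS1B* was called with a replicate block (edgeR adjusted p = 0.0163), without EZH2i replicate 2 (edgeR adjusted p = 0.0427) and without a filter on low counts (edgeR adjusted p = 0.000167), the last also calling *SKP2* (edgeR adjusted p = 0.0217).

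Of 12 Polycomb genes that repress the INK4 locus in other cells, all were tested and 0 were called, with a median log2 fold change of -0.07. That median was 0.02 without EZH2i replicate 1 and -0.11 without EZH2i replicate 2. *RNF2*, a subunit of Polycomb repressive complex 1, showed a log2 fold change of 0.40 (edgeR adjusted p = 0.0925), *EED*, a subunit of PRC2, one of -0.33 (edgeR adjusted p = 0.178) and *CBX8*, which binds the PRC2 mark, one of -0.46 (edgeR adjusted p = 0.298). Without EZH2i replicate 1 those of *EED* and *CBX8* were -0.17 and -0.23.

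**Figure D5:**
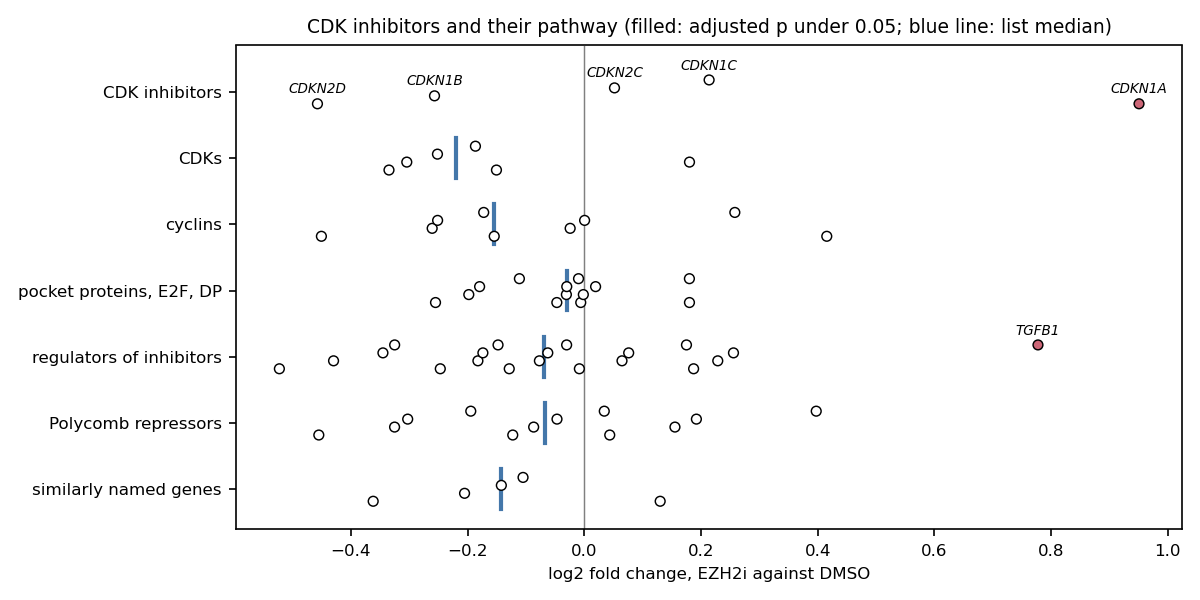
Log2 fold change of EZH2i against DMSO (horizontal axis) for each tested gene of the CDK inhibitor family and of 6 related lists (rows), with filled points at an adjusted p under 0.05 and a blue line at the median of each related list. *CDKN1A* lies furthest to the right at 0.95, and the other filled point is *TGFB1*.

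Genes beside the members were examined to place the rise of *CDKN1A* among its neighbours. Within 100 kb of *CDKN1A*, *SRSF3*, a splicing factor gene 70.9 kb away, was the 1 tested protein-coding gene, with a log2 fold change of -0.06 (edgeR adjusted p = 0.821). *RAB44* and *CPNE5* were under the filter. *CREBL2* and *APOLD1* beside *CDKN1B* had log2 fold changes of 0.12 and -0.06 and were not called. Beside *CDKN1C*, *SLC22A18* and *PHLDA2* from the same imprinted domain had log2 fold changes of 0.12 each, and *NAP1L4* one of -0.17, and none was called. *FAF1*, which lies 0.478 kb from *CDKN2C* on the opposite strand, was at 297, 311 and 335 CPM in DMSO and at 211, 248 and 259 CPM in EZH2i replicates 1 to 3, a log2 fold change of -0.39 (edgeR adjusted p = 0.0457). That call was lost in 5 of the 6 fits without 1 library, with an adjusted p of up to 0.16 (edgeR), and with at least 10 counts in every library (edgeR adjusted p = 0.0518). Near *CDKN2D*, *SLC44A2*, a choline transporter gene 33.4 kb away, rose with a log2 fold change of 0.61 (edgeR adjusted p = 0.0129), a call lost without DMSO replicate 1 or 3 (edgeR adjusted p = 0.0673 and 0.06). *PDE4A*, *KEAP1*, *ATG4D* and *KRI1* had log2 fold changes from -0.20 to 0.14 and were not called. *KEAP1* aside, the small values of the uncalled neighbours named here moved by over 1.5 times when a single library was left out.

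The genes whose log2 CPM followed a member most closely over the 6 libraries are given as a description. For *CDKN1A* they were *LAMC1* (Pearson's r = 0.996), *BEND7* (0.995) and *CHD7* (0.993), and 218 tested genes had an r over 0.95. For *CDKN2D* they were *VPS29* (0.999), *NUDT21* (0.997) and *EXT2* (0.997), with 240 genes over 0.95. For *CDKN1C* they were *EMP2* (1.00), *SLC39A9* (0.998) and *TPTEP1* (0.996), with 90 genes over 0.95. *CDKN1B* was followed most closely by *CDKN3* (0.991), *RNASEH1* (0.983) and *ADGRE5* (0.981), with 51 genes over 0.95. *CDKN2C* had the fewest over 0.95, at 29, led by *RABGAP1* (0.993) and *NCLN* (0.982) among named genes. All of these values rest on the same 6 libraries of 2 treatments.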

How the data were processed

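QuantSeq FWD libraries of 3 DMSO and 3 EZH2i samples, grouped by their labels, were used. The authors aligned the reads to hg38, and the submitters' processing notes name STAR 2.6.0c and HTSeq 0.11.2; the deposited files hold raw read counts per Ensembl gene and library. A deposited table of the authors' own DESeq2 comparison (fold changes, p-values) was not used. Rows that name no gene, 32.1% to 36.4% of listed reads, were left out.

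Symbols and positions come from GENCODE v44 (GRCh38); 60401 of 60671 identifiers matched. The main test was that of edgeR 4.0.16 under R 4.3.3 (TMM, filterByExpr with a minimum count of 10, glmQLFit, glmQLFTest, two-sided, Benjamini-Hochberg adjustment, threshold 0.05). Standard errors were taken as |log2 fold change|/√F. DESeq2 1.42.0 and limma-voom (limma 3.58.1) were alternatives. The edgeR, DESeq2 and limma-voom fits were tested on simulated data, and the fits with other settings were not. For 3 against 3 samples the smallest p of an exact permutation test is 0.10, and none was run. Members and lists were chosen with earlier results of these data known. Named are all members, called genes of each list or else the 3 with the smallest p, tested neighbours within 100 kb (some items are not reported here) and the 3 genes most like each member.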

Additional observations from a re-analysis of the deposited data

How the results depend on the processing

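Every fit kept *CDKN1A* past the threshold and no other member, but *CDKN2C* changed sign without EZH2i replicate 1 (-0.0331; range -0.0331 to 0.157 across the fits that each left out a library). Genes called over the whole table were 413 higher and 114 lower, 292 and 143 with DESeq2, 135 and 13 at an adjusted p under 0.01, 349 lower without a filter, and 180 to 412 higher and 20 to 124 lower across the fits that each left out a library. Without DMSO replicates 1, 2 and 3 there were 180, 189 and 185 higher and 33, 20 and 55 lower. The cause was not tested. The counts of called cyclins went from 0 to 1 lower without a filter and from 0 to between 0 and 1 higher across the fits without a library. Regulators of the inhibitors had 3 lower without a filter, 1 lower with a replicate block, and between 0 and 1 higher and 0 and 1 lower across the fits without a library. Sign changes of genes that were not called were *TFDP1* without EZH2i replicate 1 (0.0140; range from -0.441), *SRSF3* without DMSO replicate 1 (0.0133) and EZH2i replicate 3 (0.0136; range from -0.104), *APOLD1* without DMSO replicate 3 (0.274) and EZH2i replicate 2 (0.106; range -0.300 to 0.274), and *ATG4D* without DMSO replicate 2 (0.0181) and EZH2i replicate 1 (0.0319; range from -0.250). Without reads, *CDKN2A* and *CDKN2B* have a value in no fit. Of all protein-coding genes in the window around them, the pair included, 95.7% had no read within 1 Mb and 92.0% within 2 Mb. Without the pair these were 95.2% and 91.3%.

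Deviations from the group mean correlated at -0.0668, -0.0202 and -0.0278 for same-numbered libraries. For libraries with different numbers the correlations were -0.104 to 0.125. With 3 libraries in a group, these values cannot settle whether replicate numbers pair the libraries. With a replicate block 450 genes were higher and 149 lower, the log2 fold change of *CDKN1A* was 0.95, and no call of a member changed. Calls with the block were compared for the members, the neighbours and the named pathway genes other than *CUL4A*, and not for the cell type markers. Among the genes compared, the block changed the call of *CKS1B*.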

Other observations

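Several genes have names close to those of the inhibitors but belong to other families, and 5 of them were tested. None was called higher or lower at an adjusted p-value under 0.05 in edgeR's test, and their median log2 fold change was -0.14. *CDK2AP1*, which encodes a CDK2-associated protein, was at 44.3, 51.2 and 49.0 CPM in DMSO and at 39.7, 33.2 and 39.8 CPM in EZH2i replicates 1 to 3, so that the groups were separate (log2 fold change -0.36, edgeR adjusted p = 0.108). *CDKN3*, a phosphatase that acts on CDKs, showed a log2 fold change of -0.14 (edgeR adjusted p = 0.579) and *CDKN2AIPNL* one of -0.21 (edgeR adjusted p = 0.528). That of *CDKN3* was -0.06 without EZH2i replicate 1, and that of *CDKN2AIPNL* went to -0.06 when DMSO replicate 2 was left out and to -0.10 when EZH2i replicate 1 was.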
